A study of Mus musculus with 18 samples.

Results

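Collagens are the triple-helical proteins of the extracellular matrix, and the genes described here encode 40 of their chains. They were listed by symbol and mapped to the Entrez identifiers of the deposited count tables from 27179 genes counted in all. All 40 passed the filter on low counts (a CPM, the count scaled to library size, above 0.2 in at least 3 of 18 libraries), which left 17989 genes for testing. A gene can pass that filter through a single population, so passing does not mean that a gene was detected in every population.

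RNA was sequenced from 6 populations of cells sorted from untreated wild-type C57BL/6 mice, with 3 libraries for each population and 1 mouse behind each library. Tracheal epithelium of mice 1, 2 and 3 gave NGFR-positive basal stem cells (BSCs) and NGFR-negative cells, called non-basal cells here. Lungs of mice 4, 5 and 6 gave EpCAM-positive CD104-positive airway cells with high CD24 (CD24hi airway cells, labelled as enriched for ciliated cells) or low CD24 (CD24lo airway cells, labelled as enriched for club cells), EpCAM-positive CD104-low alveolar cells, and EpCAM-negative cells, labelled as non-epithelial. Replicates 1, 2 and 3 of the lung populations are mice 4, 5 and 6. The gates are mixtures: the EpCAM-negative gate is defined only by what its cells lack. Tracheal epithelium was peeled off after dispase and dispersed with trypsin, while lung was digested with collagenase and also stained for CD31 and CD45, markers of endothelium and leukocytes, with alveolar cells gated as negative for both. Organ, animal and dissociation cannot be told apart in any comparison of trachea with lung.

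As background, each collagen molecule is a trimer, built from copies of a single chain in some types and from the products of several genes in others. Fibrillar collagens (types I, II, III, V, XI, XXIV and XXVII) form the cables of connective tissue and are made mainly by fibroblasts and, for types II and XI, by chondrocytes. Type IV forms the sheet-like network of basement membranes on which epithelia and endothelia rest, type VII ties that sheet to the stroma below stratified and pseudostratified epithelia, and the remaining types decorate fibrils, form short networks or span the cell membrane.

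Counted reads ranged from 29317215 to 32993621 in the tracheal libraries and from 9811503 to 13208897 in the lung libraries. The share of counted reads that fell on the 40 collagen genes was 3.16 to 3.33% in EpCAM-negative cells, 0.240 to 0.295% in alveolar cells, 0.116 to 0.162% in CD24lo and 0.0923 to 0.140% in CD24hi airway cells, 0.0758 to 0.0873% in BSCs and 0.0215 to 0.0276% in non-basal cells. Only the ranges of the 2 airway gates overlapped. Basal, ciliated and pan-epithelial markers went with the labels. The summed level of 5 basal markers was 1864 to 1944 RPKM in BSCs and at most 187 RPKM in any other library, where RPKM is the read count scaled to gene length and to the TMM-scaled library size. The summed level of 5 ciliated markers was 2285 to 2513 RPKM in CD24hi airway cells and 204 to 439 RPKM in CD24lo airway cells, and that of 5 pan-epithelial markers was 23.0 to 28.3 RPKM in EpCAM-negative cells and at least 536 RPKM elsewhere. Transcripts of other cell types were nevertheless counted in every lung gate. The 3 club markers summed to 490208 to 690882 RPKM in CD24lo and 72535 to 95286 RPKM in CD24hi airway cells. The 4 alveolar type 2 markers summed to 160924 to 180699 RPKM in alveolar and 4016 to 6921 RPKM in CD24lo cells. The 8 fibroblast markers summed to 10722 to 11656 RPKM in EpCAM-negative cells, 534 to 925 in alveolar, 258 to 499.8 in CD24lo and 73.7 to 277 in CD24hi cells, with all 8 detected in every lung library. The 8 endothelial markers summed to 185 to 305, 57.0 to 112, 139 to 347 and 69.6 to 259.8 RPKM in the same order. In the airway gates the library of mouse 4 had the highest share of collagen reads.

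Of the 40 genes, 32 had their highest mean level in EpCAM-negative cells, 3 in BSCs (Col4a6, Col7a1 and Col25a1), 3 in CD24hi airway cells (Col8a2, Col20a1 and Col26a1) and 2 in alveolar cells (Col4a3 and Col4a4). None was highest in non-basal or CD24lo airway cells. A mean above 1 RPKM was reached by 30 of the 40 in EpCAM-negative cells, 25 in alveolar, 24 in CD24lo and 19 in CD24hi cells, and by 8 in each tracheal population. In bulk libraries such as these, fewer cells of a type and less RNA per cell cannot be told apart.

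**Figure D1:**
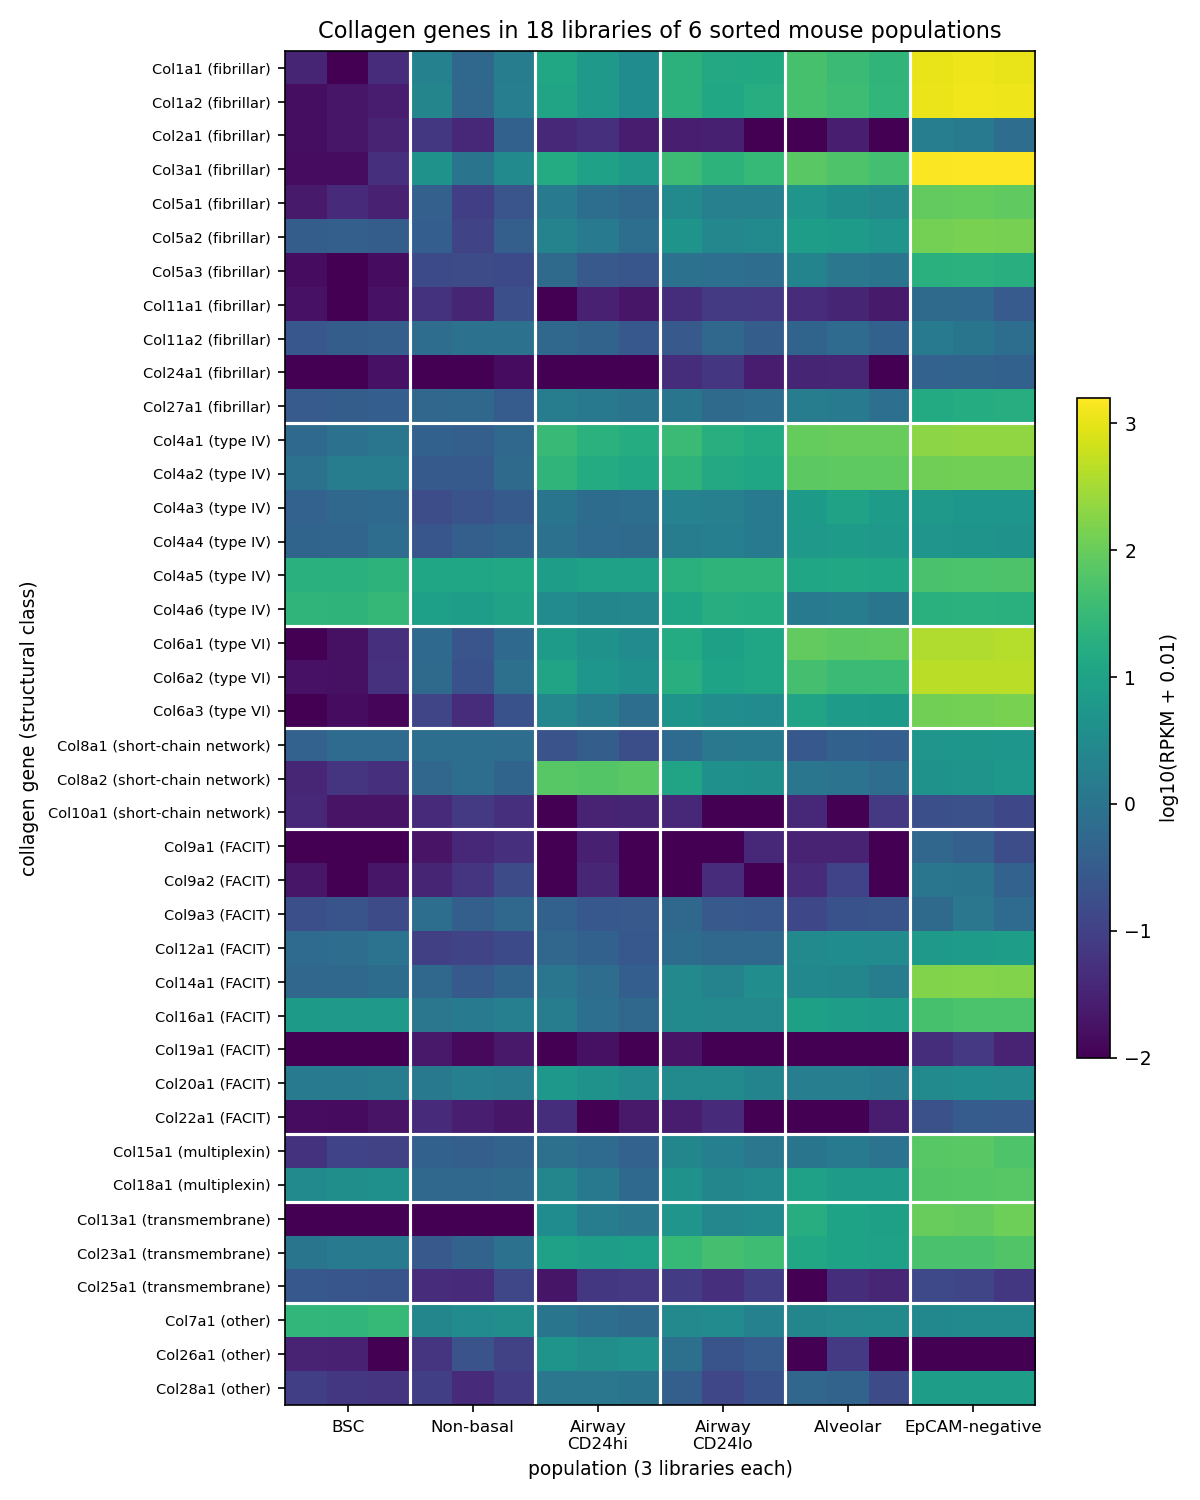
Level of each of the 40 collagen genes (rows, grouped by structural class) in each of the 18 libraries (columns, 3 per population), as log10 of RPKM plus 0.01. The EpCAM-negative columns are brightest for 32 of the 40 genes, while Col7a1 and Col4a6 are brightest in BSCs, Col8a2 in CD24hi airway cells, and most fibrillar genes are darkest in BSCs.

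The 3 comparisons within lung asked how collagen expression differed between EpCAM-negative cells and each epithelial gate. With edgeR's quasi-likelihood test and a Benjamini-Hochberg adjusted p-value under 0.05 over all 17989 genes, 35 of the 40 collagen genes were higher and 2 lower in EpCAM-negative than in alveolar cells, where 61.9% of all tested genes were called in either direction, 32.7% higher and 29.2% lower. The 3 EpCAM-negative and the 3 alveolar libraries did not overlap in level for 38 of the 40, as they did not for 72.0% of all tested genes. The median log2 fold change was 3.63 over the collagen genes and 0.01 over all tested genes. Against CD24hi airway cells 36 were higher and 3 lower (72.2% of all tested genes called, 36.7% higher and 35.6% lower), the lower ones being Col8a2, Col20a1 and Col26a1. Against CD24lo airway cells 34 were higher and 1, Col26a1, was lower (63.4% of all tested genes called, 32.1% higher and 31.4% lower). These 3 comparisons share the EpCAM-negative libraries. All 11 fibrillar genes, all 3 type VI genes and both multiplexin genes were called higher in EpCAM-negative cells in all 3 comparisons. For Col11a2 the call against alveolar cells was lost with the gene length correction (adjusted p = 0.0731).

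Among the fibrillar genes, Col3a1, which encodes type III collagen, had the highest level of any collagen gene, at 1452, 1558 and 1532 RPKM in the EpCAM-negative libraries of mice 4, 5 and 6. It was at 75.6, 59.1 and 44.5 RPKM in alveolar cells, 36.1, 22.7 and 30.9 in CD24lo and 15.5, 9.36 and 6.52 in CD24hi airway cells. The EpCAM-negative libraries were thus far above every epithelial library, and in the epithelial gates the libraries of mouse 4 were the highest. Col3a1 was called higher in EpCAM-negative than in alveolar cells (log2 fold change 4.66, SE 0.45, adjusted p = 5.75e-08). Col1a1 and Col1a2 encode the chains of type I collagen, the main fibril of connective tissue. Col1a1 was at 1077, 1157 and 1071 RPKM in EpCAM-negative and 47.7, 35.0 and 25.5 RPKM in alveolar cells (log2 fold change 4.93, SE 0.48, adjusted p = 5.80e-08). Col1a2 was at 1139.7, 1217 and 1169 RPKM in EpCAM-negative and 47.7, 37.9 and 26.8 RPKM in alveolar cells (log2 fold change 4.97, SE 0.46, adjusted p = 3.24e-08). Neither chain overlapped between these gates. The ratio of Col1a1 to Col1a2, compared per length, was 0.945, 0.951 and 0.916 in EpCAM-negative libraries and 1.001, 0.925 and 0.951 in alveolar libraries, so the transcripts of the chains were nearly equal in level within each library.

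Type V collagen, which starts and limits the growth of type I fibrils, was lower than type I in every lung gate. In EpCAM-negative cells Col5a1 was at 88.7, 92.9 and 86.8 RPKM, Col5a2 at 127, 141 and 138 and Col5a3 at 20.4, 20.5 and 17.8. In alveolar cells Col5a1 was at 5.06, 3.89 and 2.86 RPKM, Col5a2 at 8.33, 7.04 and 5.04 and Col5a3 at 2.19, 1.12 and 0.979. No alveolar library came near an EpCAM-negative library for any of these chains. Their log2 fold changes, as EpCAM-negative minus alveolar, were 4.50, 4.31 and 3.76, with adjusted p-values of 2.73e-09, 3.90e-09 and 5.15e-10. Col27a1, a fibrillar chain known from cartilage and other tissues, was at 16.3 ± 1.25 RPKM (mean ± SD, n = 3) in EpCAM-negative cells and 1.23 ± 0.386 RPKM (mean ± SD, n = 3) in alveolar cells (log2 fold change 3.72, SE 0.23, adjusted p = 1.14e-10).

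Each epithelial level was also expressed as a percentage of the EpCAM-negative library of the same mouse, for genes with at least 100 reads in every EpCAM-negative library. For Col1a1 these percentages were 4.43, 3.03 and 2.38 in alveolar, 2.04, 1.17 and 1.34 in CD24lo and 1.17, 0.542 and 0.317 in CD24hi airway cells. The median over 7 fibrillar genes was 4.19% in alveolar, 2.07% in CD24lo and 0.807% in CD24hi cells. The median over the 8 fibroblast markers was 6.29%, 2.33% and 1.19% in the same order. The medians of both lists thus had the same order of gates, but single genes did not all follow it. Dcn, Pdgfrb and Pi16 were at a higher median percentage in CD24lo (3.59, 5.26 and 0.893) than in alveolar cells (0.712, 3.41 and 0.488), and Col27a1 was higher in CD24hi (7.54) than in CD24lo cells (4.18). Single fibroblast markers ranged widely, in alveolar cells from 0.488% for Pi16 to 10.01% for Mfap4. The part of RNA from other cell types in the epithelial values was not tested.

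**Figure D2:**
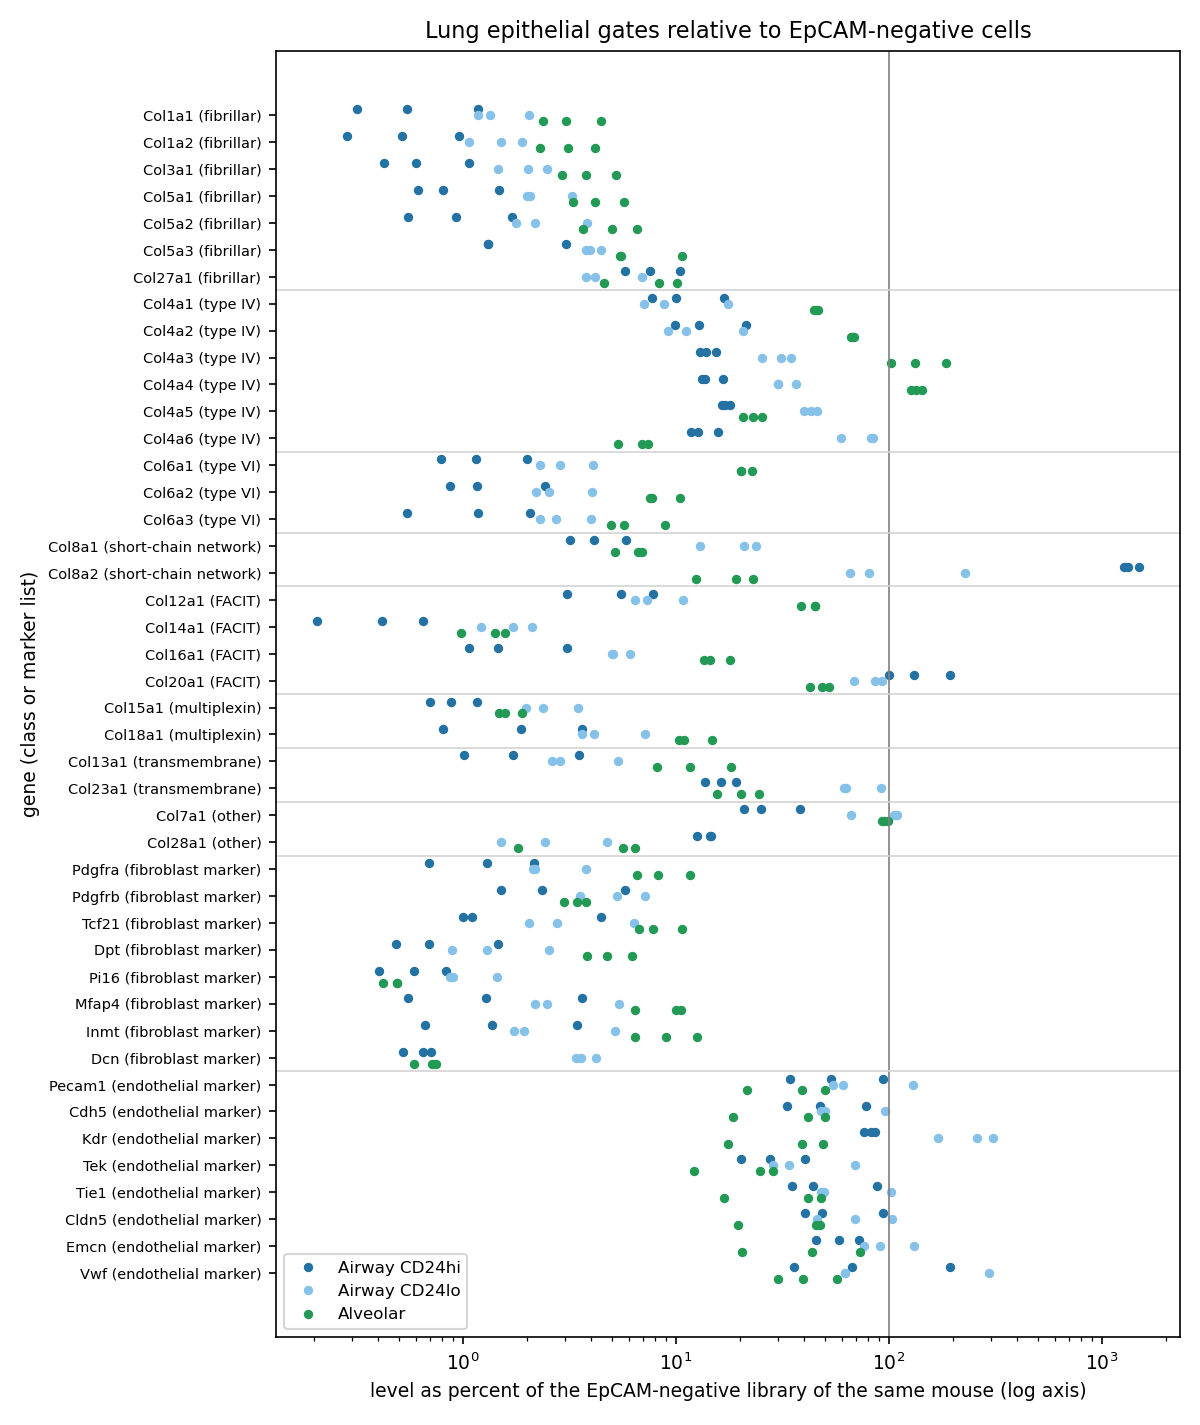
Level of collagen genes with at least 100 reads in every EpCAM-negative library, and of fibroblast and endothelial markers, in the 3 lung epithelial gates, as a percentage of the EpCAM-negative library of the same mouse (log axis, 1 point per mouse). Fibrillar genes and fibroblast markers mostly lie below 10%, type IV genes and endothelial markers mostly lie between 10% and 100%, and Col8a2 in CD24hi airway cells lies highest of the genes shown. Endothelial markers summed to 185 to 305 RPKM in EpCAM-negative libraries, so their percentages are not shares of endothelial RNA.

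Between the epithelial gates, 18 of the 40 genes were higher and 8 lower in alveolar than in CD24lo airway cells (48.4% of all tested genes called, 24.2% in each direction). This count rested in part on 1 library: without alveolar replicate 1 it was 17 of 40, and the calls for Col1a1, Col1a2, Col3a1, Col5a1, Col5a2, Col5a3, Col27a1, Col6a3 and Col15a1 were lost. For Col1a1 the adjusted p-value was 0.0341 with all libraries and 0.141 without that library, and it was 0.114 without CD24lo replicate 2, 0.104 without CD24lo replicate 3, 0.0587 without alveolar replicate 2 and 0.0732 with DESeq2. The calls for the other type I, III and V chains were lost in the same way when CD24lo replicate 2 or 3 was left out (adjusted p from 0.0641 to 0.152), and that for Col27a1 also in a fit of only the libraries compared, without (0.129) and with the mouse as a block (0.0777). Against CD24hi airway cells, 22 genes were higher and 5 lower in alveolar cells (61.9% of all tested genes called, 31.4% higher and 30.5% lower), and 7 of 11 fibrillar genes were higher. One of them, Col24a1, rested on 4 alveolar reads against 0 in CD24hi cells (adjusted p = 0.0428), and its call was lost with library size alone, with no filter and without CD24hi replicate 1, 2 or 3 or alveolar replicate 1 or 2 (adjusted p from 0.0535 to 0.108). In CD24hi relative to CD24lo airway cells 5 genes were higher and 22 lower (55.0% of all tested genes called, 27.8% higher and 27.2% lower), among them 7 fibrillar genes that were lower. For Col1a1 that last difference (log2 fold change -1.16, SE 0.42, adjusted p = 0.0269) was lost without CD24hi replicate 2 (adjusted p = 0.0874), CD24hi replicate 3 (0.110) or CD24lo replicate 1 (0.102), and when TMM was replaced by plain library sizes (0.0870). Calls were also lost in some alternatives for Col5a3 (adjusted p from 0.0545 to 0.0571), Col6a2 (0.0527 to 0.121) and Col12a1 (0.0625 to 0.273). The same held for Col27a1, the 1 fibrillar gene called higher in CD24hi cells (0.0524 to 0.130). Col24a1, called lower, had 0 reads in CD24hi and 8 in CD24lo cells. The fibroblast marker sums were highest in alveolar and lowest in CD24hi cells, while the 8 smooth muscle and pericyte markers summed to 85.4 to 173 RPKM in CD24lo, 50.3 to 76.2 in alveolar and 21.6 to 55.8 in CD24hi cells. Between CD24hi and CD24lo cells, 2 of 8 fibroblast and 7 of 8 smooth muscle and pericyte markers were called lower. Of 5 mesothelial markers 4 were lower in CD24hi than in CD24lo cells and 4 were lower in alveolar than in CD24lo cells, with sums of 51.5 to 79.5 RPKM in CD24lo, 7.91 to 9.86 in alveolar, 6.86 to 10.4 in CD24hi and 55.1 to 95.0 in EpCAM-negative cells. The same markers summed to 1356 to 1380 RPKM in non-basal cells and 275 to 290 RPKM in BSCs, so a high sum does not by itself show mesothelial cells. As median percentages of the EpCAM-negative level, those in CD24lo cells ran from 34.8 for Upk1b to 414 for Msln among markers with at least 100 reads. The part of any of these cell types in the differences was not tested.

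Type VI collagen forms beaded filaments between the larger fibrils and the basement membrane, from the chains Col6a1, Col6a2 and Col6a3. In EpCAM-negative cells Col6a1 was at 383, 383 and 412 RPKM, Col6a2 at 454, 463 and 467 and Col6a3 at 122, 130.3 and 139.6. In alveolar cells Col6a1 was at 87.5, 77.2 and 82.8 RPKM, Col6a2 at 47.5, 35.6 and 35.4 and Col6a3 at 10.9, 7.44 and 6.88. Col6a1 was thus the least reduced chain in alveolar cells: it was at 22.9, 20.2 and 20.1% of the EpCAM-negative level, against 10.4, 7.68 and 7.58% for Col6a2 and 8.92, 5.71 and 4.93% for Col6a3. The ratio of Col6a1 to Col6a2 was 1.84, 2.17 and 2.34 in alveolar libraries, 0.842, 0.826 and 0.882 in EpCAM-negative, 0.847, 0.865 and 0.992 in CD24lo and 0.694, 0.813 and 0.796 in CD24hi libraries. No library outside the alveolar gate came near the alveolar ratio among the lung populations. The difference from CD24lo airway cells was log2 2.78 for Col6a1 (adjusted p = 6.19e-07), 1.55 for Col6a2 (adjusted p = 0.00113) and 1.11 for Col6a3 (adjusted p = 0.0127). The call for Col6a3 was lost without alveolar replicate 1 (0.0717) or CD24lo replicate 3 (0.0554). In BSCs the 3 genes had only 7, 8 and 3 reads over all 3 libraries.

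The 6 type IV genes lie in head-to-head pairs, and the products of each pair share a network, while that of Col4a5 also joins those of Col4a3 and Col4a4. In the GRCm38.p6 annotation from RefSeq, Col4a1 (Entrez 12826) lies on the minus strand of chromosome 8 from 11198423 to 11312889 and Col4a2 (Entrez 12827) on the plus strand from 11312805 to 11449287. Their closest annotated starts are 21 bases apart, and each transcript begins within the other gene. Col4a3 (chromosome 1, 82586921 to 82722059, plus strand) and Col4a4 (82448419 to 82587034, minus strand) overlap by 114 bases. Col4a5 (chromosome X, 141475370 to 141689236, plus strand) and Col4a6 (141165403 to 141474095, minus strand) lie head to head with 1274 bases between them. The sequences before the starts of Col4a5 and Col4a6 are shown because the levels of these neighbours diverged between populations, and those of Col7a1 and Col8a2 because each stood out in a single population. They are printed 5′ to 3′ on the strand of the gene, up to the first annotated exon, with every CCAAT and GGGCGG on either strand in capitals. In GRCm38.p6 they are chrX:141475169-141475369 (plus strand) for Col4a5, chrX:141474096-141474326 (minus strand) for Col4a6, chr9:108953336-108953585 (plus strand) for Col7a1 and chr4:126286544-126286792 (plus strand) for Col8a2.
Col4a5: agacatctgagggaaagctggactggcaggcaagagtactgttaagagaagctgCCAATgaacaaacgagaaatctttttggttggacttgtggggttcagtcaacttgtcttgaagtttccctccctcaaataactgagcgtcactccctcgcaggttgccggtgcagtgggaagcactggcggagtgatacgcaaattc
Col4a6: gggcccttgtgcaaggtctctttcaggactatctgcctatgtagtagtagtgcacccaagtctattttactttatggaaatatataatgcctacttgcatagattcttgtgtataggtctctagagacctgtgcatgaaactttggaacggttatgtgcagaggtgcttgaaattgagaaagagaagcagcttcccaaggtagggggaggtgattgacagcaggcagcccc
Col7a1: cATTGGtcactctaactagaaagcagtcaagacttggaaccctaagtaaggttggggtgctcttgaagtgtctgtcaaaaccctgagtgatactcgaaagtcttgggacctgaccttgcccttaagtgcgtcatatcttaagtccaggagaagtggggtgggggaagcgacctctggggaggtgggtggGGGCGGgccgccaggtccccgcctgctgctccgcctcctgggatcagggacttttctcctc
Col8a2: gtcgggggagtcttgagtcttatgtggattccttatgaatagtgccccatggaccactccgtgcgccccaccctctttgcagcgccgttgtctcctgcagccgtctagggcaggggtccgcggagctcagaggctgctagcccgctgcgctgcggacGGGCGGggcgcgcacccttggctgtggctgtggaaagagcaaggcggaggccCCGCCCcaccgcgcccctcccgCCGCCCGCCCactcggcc
The printed stretch before Col4a5 holds CCAAT once and that before Col4a6 none of the motifs. These stretches end 49 bases before the start of Col4a5 and 19 bases before that of Col4a6. The full windows described below, which run past the start, hold GGGCGG once for each gene. The stretch before Col7a1 holds CCAAT and GGGCGG once each, and that before Col8a2 holds GGGCGG at 4 positions, the last ones overlapping. TATAAA, the third motif searched, is in none of them on either strand. RefSeq windows from 250 bases before to 50 bases after the start were matched for 31 of the 40 genes, the others being Col1a1, Col2a1, Col4a3, Col5a2, Col9a3, Col12a1, Col14a1, Col22a1 and Col26a1. GGGCGG was present on either strand in 19 of these 31 genes (61.3%) and in 35.9% of 27025 genes with a window, CCAAT in 10 (32.3%) and 37.9%, and TATAAA in 4 (12.9%) and 14.2%, using 1 window per gene. These matches describe letters in a window and do not show a binding site.

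Col4a1 and Col4a2 form the network found in nearly all basement membranes. Col4a1 was at 197, 213 and 216 RPKM in EpCAM-negative and 91.7, 97.4 and 96.2 RPKM in alveolar cells, and Col4a2 at 116, 122 and 125 RPKM in EpCAM-negative and 79.3, 82.0 and 82.8 RPKM in alveolar cells. For both genes the alveolar libraries lay within a narrow range, below all EpCAM-negative libraries. Col4a1 was called higher in EpCAM-negative cells (log2 fold change 1.14, SE 0.27, adjusted p = 0.00154), while Col4a2 did not pass the test (log2 fold change 0.57, SE 0.29, adjusted p = 0.0965) although the gates did not overlap. In the same mouse alveolar Col4a2 was at 68.2, 67.2 and 66.4% of the EpCAM-negative level, and with the mouse as a block, in a fit of these 6 libraries, Col4a2 was called higher in EpCAM-negative cells (log2 fold change 0.55, adjusted p = 2.57e-04), as it was in the fit of these libraries without the block (adjusted p = 9.17e-05). In alveolar cells Col4a1 was at 46.4, 45.7 and 44.5% of the EpCAM-negative level of the same mouse, while the endothelial marker Pecam1 was at 21.4, 50.1 and 39.3%. Endothelial cells should be removed by the CD31 gate. All 8 endothelial markers were nevertheless detected in alveolar libraries, and each was lowest in mouse 4 by this measure. The EpCAM-negative gate is not an endothelial reference. Its endothelial markers summed to 185 to 305 RPKM, against 139 to 347 RPKM in CD24lo cells and 10722 to 11656 RPKM for its own fibroblast markers. The endothelial percentages therefore do not give a share of endothelial RNA. Of the fibroblast markers, Pdgfra was at 11.6, 8.19 and 6.54%, Mfap4 at 10.5, 10.01 and 6.42% and Pdgfrb at 3.41, 3.80 and 2.98%, so they varied between mice to different degrees. The part of RNA from other cell types in the alveolar level of Col4a1 was not tested. In CD24hi airway cells Col4a1 was at 16.8, 9.98 and 7.67% and Pecam1 at 94.1, 53.6 and 34.4%, both highest in mouse 4. The ratio of Col4a1 to Col4a2 was 1.70, 1.75 and 1.73 in EpCAM-negative, 1.45, 1.38 and 1.34 in CD24lo, 1.34, 1.35 and 1.35 in CD24hi, 1.16, 1.19 and 1.16 in alveolar, 0.652, 0.572 and 0.681 in BSC and 1.40, 1.25 and 0.901 in non-basal libraries. The non-basal libraries varied most and spanned the alveolar range, while EpCAM-negative libraries were above and BSC libraries below all others.

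Col4a3 and Col4a4 join Col4a5 in the network of the alveolar and glomerular basement membranes, whose loss causes Alport syndrome. Col4a3 was at 6.78, 9.93 and 6.98 RPKM in alveolar and 6.62, 5.33 and 5.28 RPKM in EpCAM-negative cells, and Col4a4 at 6.58, 6.98 and 6.15 RPKM in alveolar and 5.18, 4.87 and 4.58 RPKM in EpCAM-negative cells. The alveolar libraries were the higher ones for both genes, without overlap. Both were called lower in EpCAM-negative than in alveolar cells (log2 fold change -0.46, SE 0.19, adjusted p = 0.0454 for Col4a3, and log2 fold change -0.43, SE 0.17, adjusted p = 0.0403 for Col4a4), but these small differences depended on the scaling and on single libraries. With DESeq2 the adjusted p-values were 0.0895 and 0.0661, with RLE factors 0.0744 and 0.0703, and with library size alone 0.246 and 0.244. Leaving out EpCAM-negative replicate 2 gave 0.136 and 0.0916, EpCAM-negative replicate 3 gave 0.110 and 0.0931, and alveolar replicate 2 gave 0.280 and 0.114. For Col4a4 the call was also lost without EpCAM-negative replicate 1 (0.0603) or alveolar replicate 1 (0.0812). Both genes were also higher in alveolar than in CD24lo airway cells, Col4a3 with log2 fold change 2.17, SE 0.21, adjusted p = 1.08e-07 and Col4a4 with log2 fold change 2.05, SE 0.19, adjusted p = 6.85e-08. Relative to CD24hi airway cells the log2 fold changes were 3.28 for Col4a3 (adjusted p = 4.08e-10) and 3.21 for Col4a4 (adjusted p = 1.67e-10). Of the exonic bases of Col4a3, 5.65% overlap the gene C430014B12Rik, whose reads may not be separable.

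Col4a5 and Col4a6, whose products share a network in skin, smooth muscle and airway, had another order. Col4a6 was at 25.2, 24.4 and 28.7 RPKM in BSCs, 20.4, 20.9 and 19.9 in EpCAM-negative and 12.1, 17.7 and 16.4 in CD24lo cells, 8.73, 8.34 and 10.002 in non-basal, 3.19, 2.46 and 2.51 in CD24hi and 1.41, 1.55 and 1.06 in alveolar cells. Every BSC library was above, and every alveolar library below, all others. The excess of EpCAM-negative over CD24lo cells (log2 fold change 0.41, SE 0.14, adjusted p = 0.0169) was lost without CD24lo replicate 1 (adjusted p = 0.0898), in a fit of only the libraries compared (0.0525) and with the gene length correction (0.560). Col4a5 was at 50.9, 52.3 and 55.1 RPKM in EpCAM-negative cells, 20.1, 19.9 and 22.6 in BSCs and 11.8, 13.3 and 11.3 in alveolar cells, with EpCAM-negative cells far above the other populations named. The ratio of Col4a6 to Col4a5 was 1.25, 1.23 and 1.27 in BSC, 0.754, 0.699 and 0.762 in non-basal, 0.598, 0.738 and 0.693 in CD24lo and 0.119, 0.116 and 0.0937 in alveolar libraries. Between alveolar cells and BSCs the ratio of Col4a3 to Col4a5 ran the other way, at 0.576, 0.746 and 0.615 in alveolar and 0.0210, 0.0277 and 0.0256 in BSC libraries. It was as low in non-basal libraries, at 0.0140, 0.0174 and 0.0219, and at most 0.130 in the other lung libraries. Alveolar cells thus had Col4a5 with Col4a3 and little Col4a6, and BSCs had Col4a5 with Col4a6 and little Col4a3. Little Col4a3 relative to Col4a5 was shared by both tracheal populations and not particular to BSCs. Between CD24lo and CD24hi airway cells Col4a6 differed more than any other type IV gene (log2 fold change -2.50, SE 0.15, adjusted p = 8.07e-10).

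**Figure D3:**
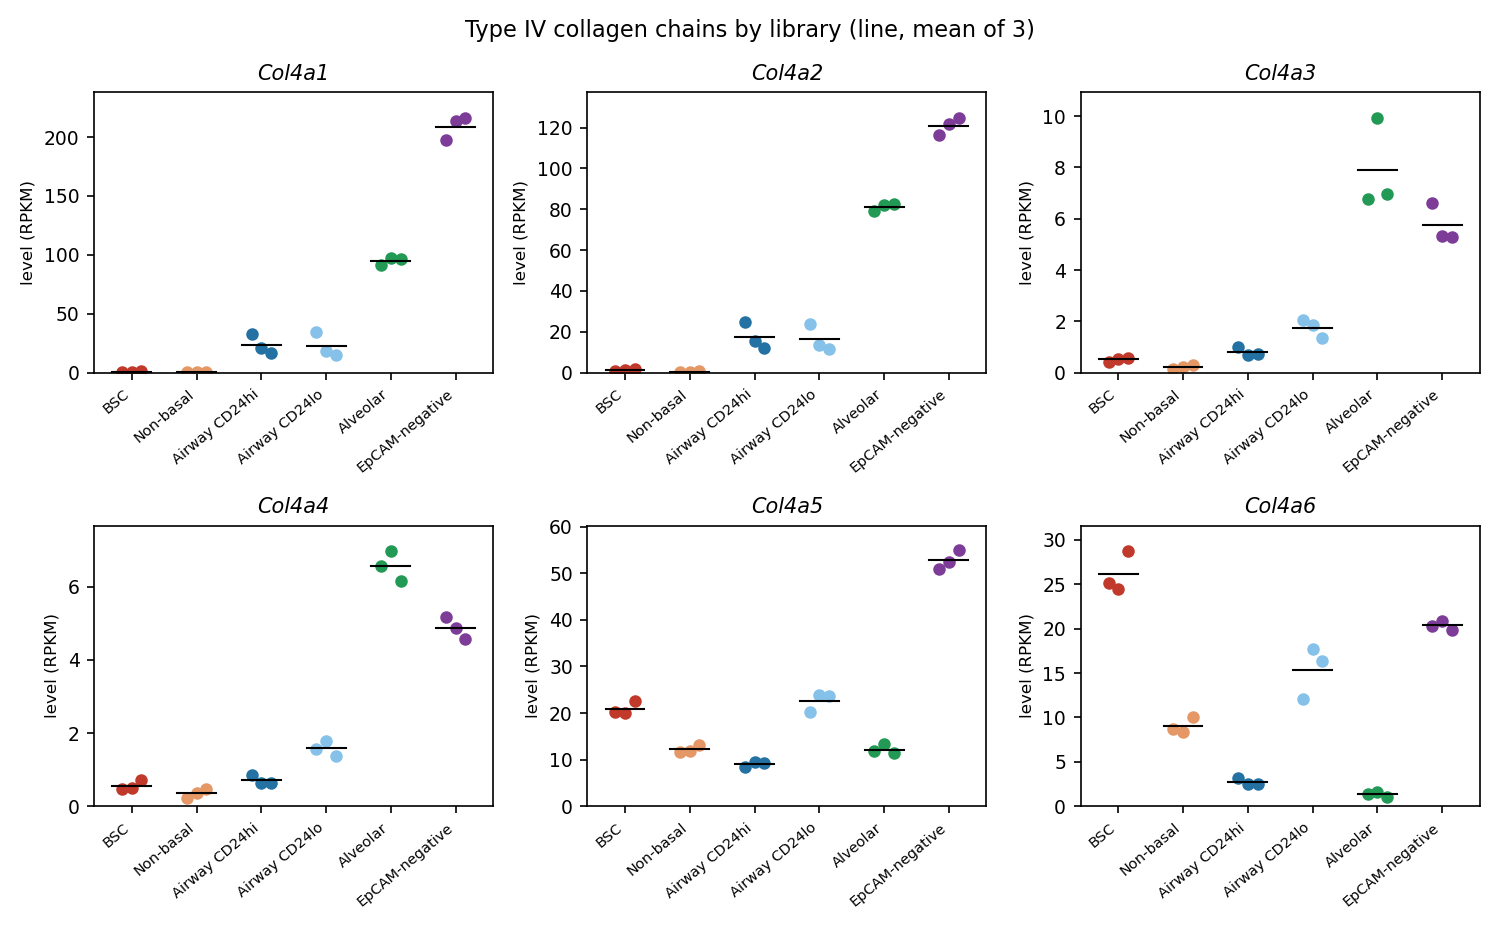
Level (RPKM, linear axis from 0) of the 6 type IV collagen genes in each library of the 6 populations, 1 point per library, with a line at the mean of 3. Col4a1 and Col4a2 are lowest in the tracheal and highest in the EpCAM-negative libraries, Col4a3 and Col4a4 are highest in alveolar cells, and Col4a6 is highest in BSCs at 26.1 RPKM and lowest in alveolar cells at 1.34 RPKM.

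BSCs and non-basal cells come from the same 3 tracheas. Their comparison asked how collagen expression differed between basal cells, which sit on the basement membrane, and NGFR-negative cells. The non-basal gate is defined only by the lack of NGFR, so it need not hold only the cells above the basal layer. The 5 basal markers summed to 146 to 187 RPKM in it. Of the 40 genes, 12 were higher and 18 lower in BSCs, where 48.2% of all tested genes were called, 21.9% higher and 26.2% lower. The libraries of the 2 populations did not overlap for 33 of the 40, against 64.9% of all tested genes. All 6 type IV genes were among those higher in BSCs, while 8 of 11 fibrillar and all 3 type VI genes were lower. The fold changes were 1.75 for Col4a2, 1.53 for Col4a6, 1.23 for Col4a3, 0.95 for Col4a1, 0.77 for Col4a5 and 0.65 for Col4a4 on the log2 scale. Those of Col4a1 and Col4a4 were the least certain. The adjusted p-value of Col4a1 was 0.0209, and it was 0.117 with limma voom, 0.1003 without BSC replicate 3, 0.0690 without non-basal replicate 1 and 0.0800 without non-basal replicate 2. That of Col4a4 was 0.0133, and it was 0.0995 without BSC replicate 3, 0.0819 without non-basal replicate 1 and 0.0915 with the tracheal libraries thinned to the depth of lung. Both ubiquitous chains were low in trachea. Col4a1 was at 0.598, 0.886 and 1.09 RPKM in BSCs and 0.402, 0.361 and 0.566 RPKM in non-basal cells, and Col4a2 at 0.916, 1.55 and 1.60 RPKM in BSCs and 0.286, 0.290 and 0.628 RPKM in non-basal cells.

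The largest excess in BSCs was that of Col7a1 (Entrez 12836, chromosome 9, 108953586 to 108984875, plus strand, 116 annotated exons when merged), the single gene of type VII collagen and of the anchoring fibrils. It was at 27.4, 26.0 and 29.8 RPKM in BSCs and 2.43, 3.18 and 3.64 RPKM in non-basal cells (log2 fold change 3.17, SE 0.18, adjusted p = 2.45e-10). In lung it was at 2.82, 3.17 and 1.94 RPKM in CD24lo airway, 2.48, 2.77 and 2.88 in alveolar, 2.68, 2.91 and 2.91 in EpCAM-negative and 1.03, 0.733 and 0.607 in CD24hi airway cells. The lowest BSC library was thus at 26.0 RPKM and the highest library of any other population at 3.64 RPKM. Col7a1 did not pass the test between EpCAM-negative and alveolar cells (adjusted p = 0.773) or between EpCAM-negative and CD24lo cells (adjusted p = 0.665).

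Next in size were Col12a1, a chain that coats fibrils, at 0.642, 0.718 and 0.966 RPKM in BSCs and 0.0877, 0.105 and 0.140 in non-basal cells (log2 fold change 2.79, SE 0.22, adjusted p = 1.50e-08), and Col18a1, a basement membrane collagen whose end is released as endostatin. Col18a1 was at 3.02, 3.85 and 4.05 RPKM in BSCs and 0.553, 0.558 and 0.613 in non-basal cells (log2 fold change 2.66, SE 0.31, adjusted p = 1.65e-06). Col16a1, found near basement membranes, was at 6.68, 6.18 and 6.49 RPKM in BSCs and 1.16, 1.38 and 1.73 in non-basal cells (log2 fold change 2.18, SE 0.20, adjusted p = 6.76e-08). None of these genes overlapped between the tracheal populations, and each was higher still in EpCAM-negative cells of lung, where Col16a1 was at 49.7, 54.5 and 54.0 RPKM and Col18a1 at 65.3, 68.7 and 72.3 RPKM. Of the transmembrane collagens, Col23a1 (log2 fold change 1.26, SE 0.27, adjusted p = 8.68e-04) and Col25a1 (log2 fold change 1.87, SE 0.43, adjusted p = 0.00144) were higher in BSCs than in non-basal cells. Col25a1 was low throughout, with at most 0.233 RPKM as the mean of a population.

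The genes lower in BSCs were led by those of stromal fibrils. Col1a1 had 4, 0 and 6 reads in the BSC libraries and 269, 71 and 233 reads in the non-basal libraries of the same mice, and Col3a1 had 1, 1 and 8 reads in BSC and 722, 154 and 519 reads in non-basal libraries. In RPKM, Col3a1 was at 0.00511, 0.00497 and 0.0406 in BSCs and 4.42, 0.972 and 3.04 in non-basal cells (log2 fold change -7.28, SE 0.69, adjusted p = 1.27e-07). Both populations were below every lung library for these genes, and mouse 2 was lowest among the non-basal libraries. The fibroblast markers summed to 29.0 to 43.3 RPKM in non-basal cells, with 7 of 8 detected in all 3 libraries. Dpt, Pi16 and Mfap4, at means of 1.49, 2.13 and 0.599 RPKM, made a small part of that sum. Of the 8 markers, 5 were called lower and 1 higher in BSCs than in non-basal cells. In BSCs the sum was 159 to 163 RPKM, of which Dcn alone made 161, while Tcf21, Pi16 and Mfap4 were at 0 reads in all 3 libraries. The part of stromal RNA in the non-basal values was not tested. Col8a2 was lower too, at 0.0263, 0.0510 and 0.0391 RPKM in BSCs and 0.511, 0.746 and 0.466 in non-basal cells (log2 fold change -3.83, SE 0.52, adjusted p = 9.12e-06). The 5 ciliated markers summed to 115 to 169 RPKM in non-basal cells and 7.57 to 10.995 RPKM in BSCs, and the part of ciliated cells in the Col8a2 difference was not tested.

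**Figure D4:**
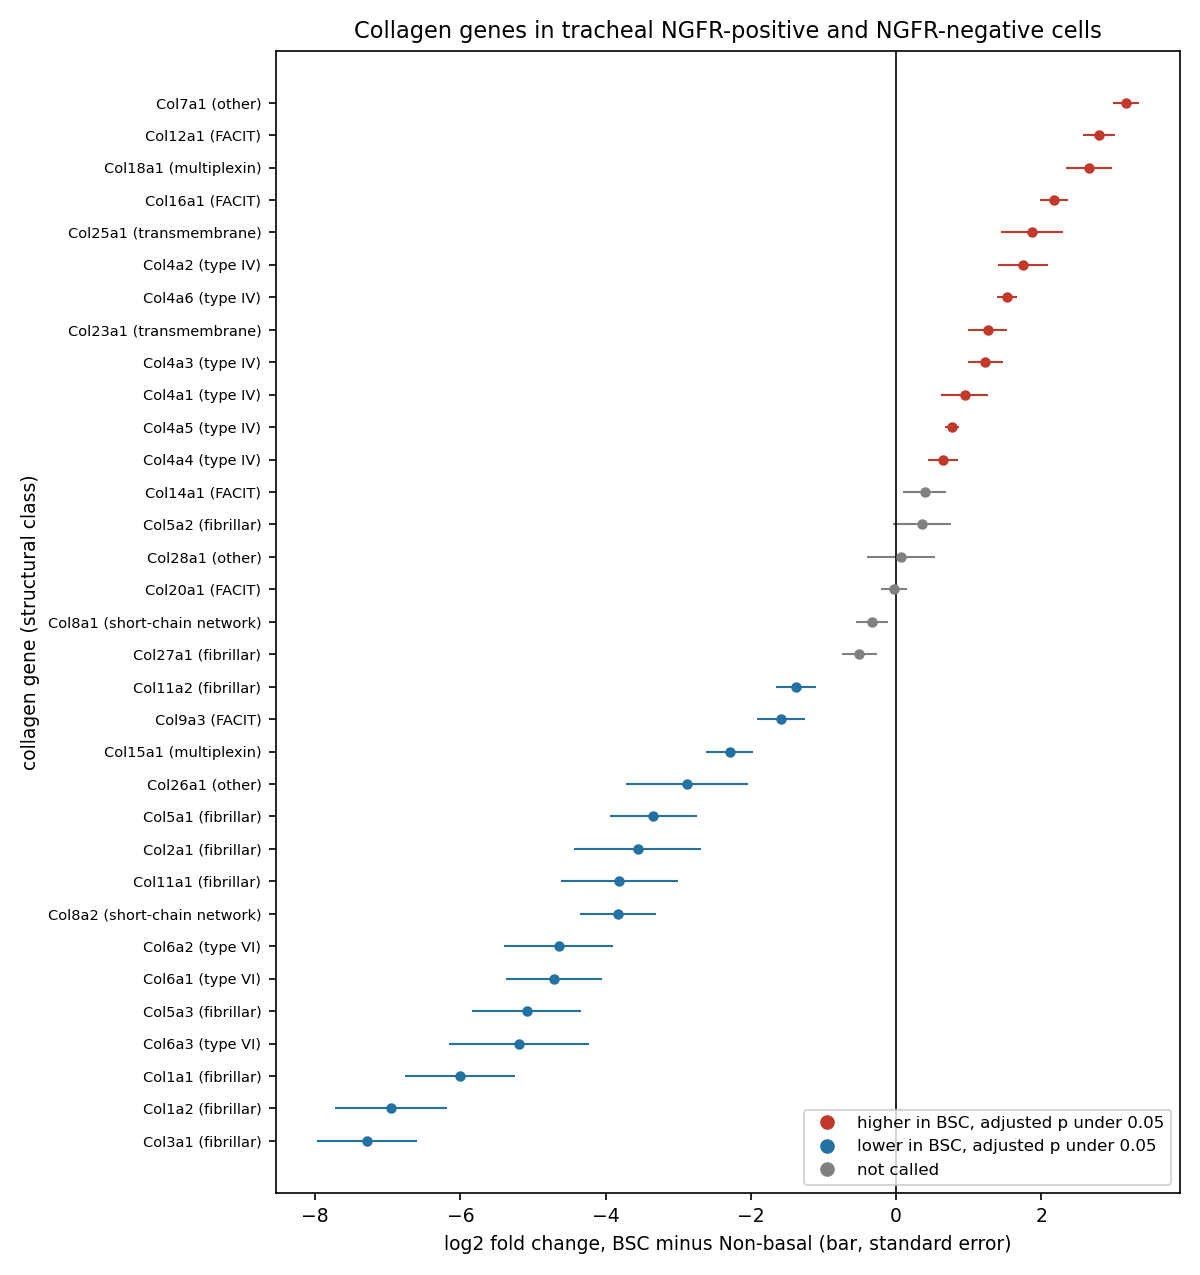
Log2 fold change of collagen genes between BSCs and non-basal cells, as BSC minus non-basal, with bars for the standard error of edgeR's fit of 18 libraries (3 BSC and 3 non-basal). Shown are 33 genes with at least 30 reads over these 6 libraries and reads in both populations, and 7 are left out. The 12 genes called higher run from Col4a4 to Col7a1, and Col1a1, Col1a2 and Col3a1 lie at -6 or below.

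Col8a2 (Entrez 329941, chromosome 4, 126286794 to 126314330, plus strand), a short-chain collagen known from the cornea's Descemet membrane, had its highest level in the CD24hi gate. It was at 69.6, 65.8 and 74.1 RPKM in CD24hi airway cells, 10.6, 4.01 and 3.83 in CD24lo, 4.67, 4.98 and 5.80 in EpCAM-negative and 1.08, 0.956 and 0.723 in alveolar cells. The lowest CD24hi library was at 65.8 RPKM and the highest other library, the CD24lo library of mouse 4, at 10.6 RPKM. Col8a2 was higher in CD24hi than in CD24lo cells (log2 fold change 3.49, SE 0.28, adjusted p = 1.39e-08) and lower in EpCAM-negative than in CD24hi cells (log2 fold change -3.76, SE 0.29, adjusted p = 1.53e-09). Its partner chain Col8a1 had the opposite order, at 5.03, 5.72 and 5.34 RPKM in EpCAM-negative and 0.207, 0.333 and 0.169 RPKM in CD24hi cells (log2 fold change 4.49, SE 0.27, adjusted p = 4.72e-11). The ratio of Col8a1 to Col8a2 was 0.00297, 0.00507 and 0.00228 in CD24hi and 1.08, 1.15 and 0.919 in EpCAM-negative libraries, so that CD24hi cells had transcripts of the one chain with hardly any of the other.

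Col26a1 (Entrez 140709), a less known collagen first found in testis and ovary, was at 4.88, 3.72 and 4.19 RPKM in CD24hi, 0.817, 0.218 and 0.298 in CD24lo and 0, 0.0680 and 0 in alveolar cells. EpCAM-negative cells had 0 reads of it in all 3 libraries, against 455 reads in CD24hi cells, which makes the level in CD24hi cells at least 145-fold higher when EpCAM-negative cells are set to a floor of 3 reads over the group. CD24hi cells were higher than CD24lo cells too (log2 fold change 3.22, SE 0.44, adjusted p = 1.23e-05). Col20a1, a fibril-associated chain, was at 6.02, 4.51 and 3.29 RPKM in CD24hi and 3.12, 3.45 and 3.27 RPKM in EpCAM-negative cells. These gates overlapped, and the lower level in EpCAM-negative cells (log2 fold change -0.49, SE 0.18, adjusted p = 0.0229) was lost without CD24hi replicate 1 (adjusted p = 0.175) or EpCAM-negative replicate 1 (0.0692). Col28a1, a chain known from peripheral nerve, was at 1.14, 1.12 and 0.985 RPKM in CD24hi and 0.370, 0.116 and 0.190 in CD24lo cells (log2 fold change 2.23, SE 0.34, adjusted p = 2.69e-05), and was highest in EpCAM-negative cells at 7.82, 7.73 and 7.87 RPKM. The ciliated marker sums given above differ between the CD24hi and CD24lo gates in the same direction as Col8a2, Col26a1 and Col28a1, and their part was not tested.

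Of the genes lower in CD24hi than in CD24lo airway cells, the transmembrane collagen Col23a1 stood at 30.9, 46.9 and 38.9 RPKM in CD24lo and 9.60, 8.28 and 8.41 RPKM in CD24hi cells (log2 fold change -2.15, SE 0.24, adjusted p = 6.05e-07). Alveolar cells were also below CD24lo cells (log2 fold change -1.86, SE 0.24, adjusted p = 3.87e-06). EpCAM-negative cells, at 50.1, 51.2 and 61.7 RPKM, did not pass the test against CD24lo cells (log2 fold change 0.48, SE 0.23, adjusted p = 0.0736), but did in a fit of only these 6 libraries, without (adjusted p = 0.0496) and with the mouse as a block (0.0284). Col7a1 and Col8a1 were also lower in CD24hi cells, with log2 fold changes of -1.75 (adjusted p = 6.83e-07) and -2.10 (adjusted p = 8.30e-06).

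**Figure D5:**
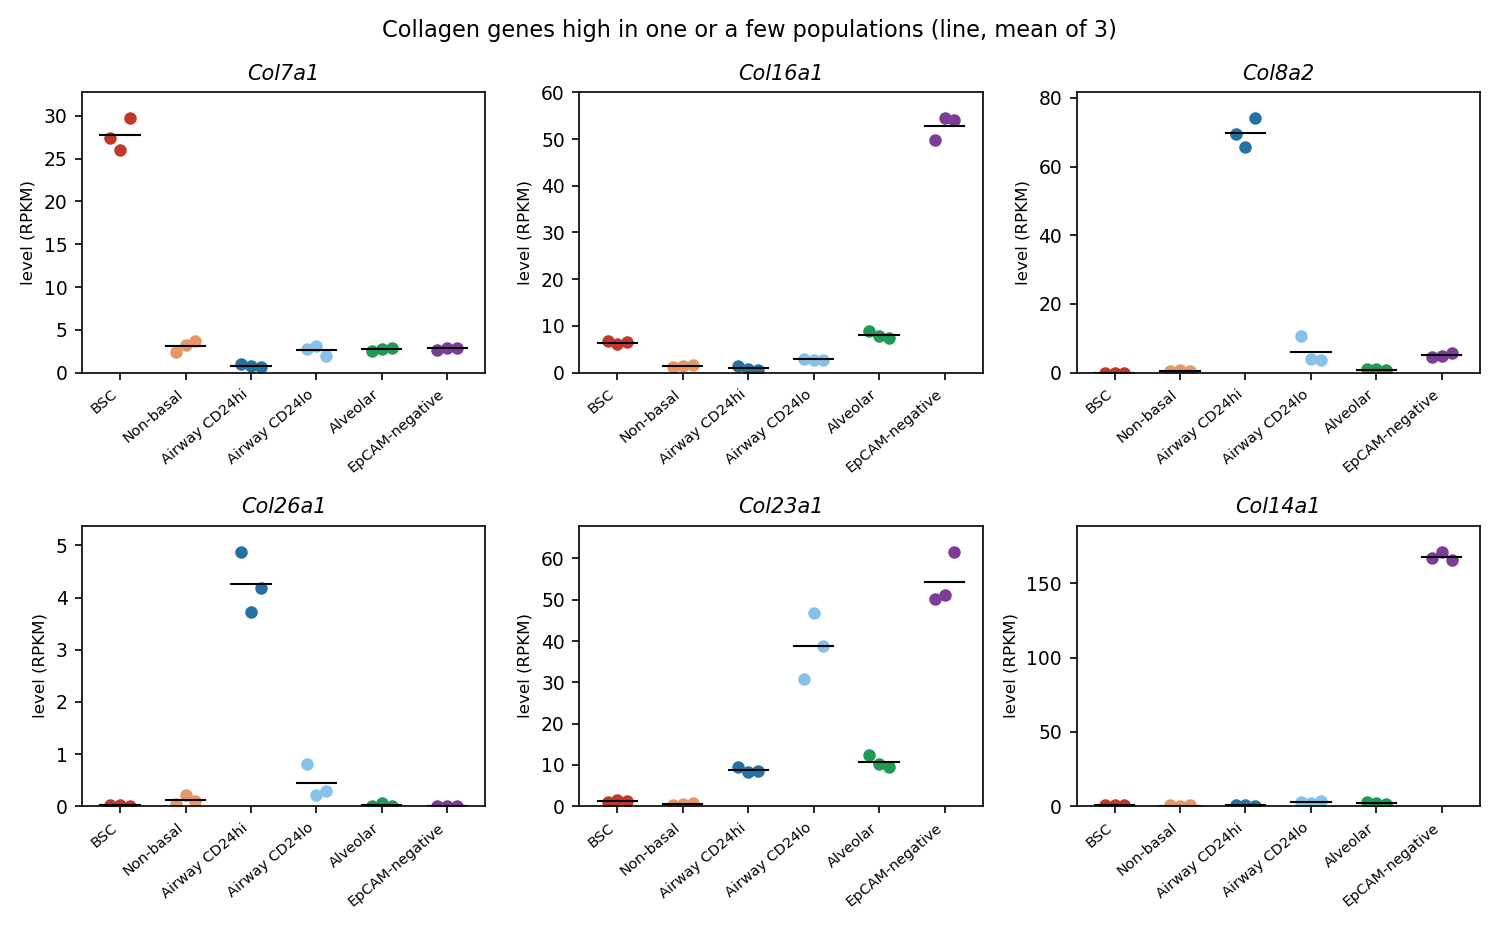
Level (RPKM, linear axis from 0) of Col7a1, Col16a1, Col8a2, Col26a1, Col23a1 and Col14a1 in each library of the 6 populations, 1 point per library, with a line at the mean of 3. Col7a1 stands out in BSCs (27.7 RPKM), Col8a2 and Col26a1 in CD24hi airway cells (69.8 and 4.26 RPKM), Col14a1 and Col16a1 in EpCAM-negative cells, and Col23a1 in EpCAM-negative and CD24lo airway cells.

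Among the fibril-associated and multiplexin collagens, Col14a1, which coats type I fibrils, had 167, 171 and 166 RPKM in EpCAM-negative cells and at most 3.499 RPKM in any other library (log2 fold change 6.24, SE 0.31, adjusted p = 7.49e-12 against alveolar cells). Col15a1, a multiplexin of vascular and muscle basement membranes, was at 69.6, 74.3 and 59.2 RPKM in EpCAM-negative and 1.03, 1.40 and 0.930 RPKM in alveolar cells (log2 fold change 5.91, SE 0.24, adjusted p = 5.18e-13). Col12a1 was at 6.47, 7.40 and 8.30 RPKM in EpCAM-negative and 2.92, 3.32 and 3.21 in alveolar cells (log2 fold change 1.23, SE 0.18, adjusted p = 8.97e-06). The transmembrane collagen Col13a1 was at 96.1, 89.8 and 112 RPKM in EpCAM-negative and 17.4, 10.5 and 9.12 RPKM in alveolar cells (log2 fold change 3.01, SE 0.32, adjusted p = 1.91e-06), and at 0 reads in all 6 tracheal libraries. At the floor of 3 reads over the 3 BSC libraries, alveolar cells were at least 1289-fold and EpCAM-negative cells at least 10294-fold higher than BSCs for Col13a1. Col10a1, Col19a1, Col22a1, Col24a1 and Col25a1 were low throughout, with 0.451 RPKM for Col24a1 in an EpCAM-negative library as their highest value in any library.

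Tracheal rings are made of cartilage, and most cartilage collagens had few reads in either tracheal population. Col2a1, the fibril of cartilage, had 9, 4 and 63 reads in the non-basal libraries and 1, 2 and 4 in the BSC libraries. Most of the non-basal reads came from mouse 3, and the call of a lower level in BSCs (adjusted p = 0.00273) was lost without that library (0.0695). Its partner Col11a1 had 10, 5 and 40 reads in non-basal and 2, 0 and 2 in BSC libraries, while Col11a2 had more, 118, 138 and 155 in non-basal and 50, 68 and 73 in BSC libraries. Both were lower in BSCs, with log2 fold changes of -3.81 and -1.37 (adjusted p = 8.01e-04 and 4.66e-04). Of the type IX chains, which link to type II fibrils, Col9a1 had 1, 3 and 5 reads in non-basal and 0 in BSC libraries, Col9a2 had 2, 4 and 12 in non-basal and 1, 0 and 1 in BSC libraries, and Col9a3 had 61, 29 and 48 in non-basal and 18, 22 and 15 in BSC libraries. The 3 type IX chains were called lower in BSCs, with adjusted p-values of 0.0130, 0.0142 and 6.52e-04, but without non-basal replicate 3 the calls for Col9a1 (0.0516) and Col9a2 (0.127) were lost. Col2a1, Col9a1, Col9a2 and Col11a1 had too few reads to be fitted with the mouse as a block. For Col9a2 the call was also lost without BSC replicate 2 (0.0549) and after thinning (0.0979). The 8 chondrocyte markers summed to 1.049 to 1.94 RPKM in non-basal and 0.890 to 1.497 RPKM in BSC libraries, with Sox9 at means of 1.12 and 1.08 and Matn1 at 0 reads in non-basal cells. Of the 6 chondrocyte markers that could be tested, 3 were called lower and 0 higher in BSCs (median -2.50 on the log2 scale), and their part in the difference of the cartilage collagens was not tested. In EpCAM-negative cells of lung the sum was 5.75 to 8.87 RPKM, and Col2a1 was at 1.66, 1.29 and 0.697 RPKM. Of the exonic bases of Col9a3, 6.07% overlap the gene Tcfl5.

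BSCs were also set against the lung populations outside their own organ. Against alveolar cells, 5 collagen genes were higher and 22 lower in BSCs (66.1% of all tested genes called, 30.5% higher and 35.6% lower), and against EpCAM-negative cells 3 were higher and 36 lower (70.3% of all tested genes called, 33.7% higher and 36.6% lower). Higher than in alveolar cells were Col4a6 (log2 fold change 4.28, SE 0.17, adjusted p = 2.62e-13), Col25a1 (log2 fold change 3.43, SE 0.65, adjusted p = 1.77e-04), Col7a1 (log2 fold change 3.36, SE 0.18, adjusted p = 2.58e-11), Col8a1 (log2 fold change 0.79, SE 0.28, adjusted p = 0.0188) and Col4a5 (log2 fold change 0.78, SE 0.09, adjusted p = 9.69e-07). That of Col8a1 was lost without BSC replicate 2 (adjusted p = 0.0580), BSC replicate 3 (0.0601) or alveolar replicate 1 (0.0994). Col7a1 was the only one of the 3 genes higher than in EpCAM-negative cells (log2 fold change 3.29, SE 0.18, adjusted p = 2.00e-11) that kept its call in all alternatives run, since Col4a6 (log2 fold change 0.36, SE 0.14, adjusted p = 0.0276) and Col25a1 (log2 fold change 1.22, SE 0.46, adjusted p = 0.0258) both lost it with the tracheal libraries thinned (adjusted p = 0.0546 and 0.0541). For Col4a6 it was also lost without BSC replicate 3 (0.115) or EpCAM-negative replicate 1 (0.0658), 2 (0.0524) or 3 (0.0572), and for Col25a1 without BSC replicate 1 (0.0591) or EpCAM-negative replicate 2 (0.0517) or 3 (0.104). Col4a1 and Col4a2 were lower in BSCs than in alveolar cells, with log2 fold changes of -6.79 and -5.91 (adjusted p = 1.32e-11 and 1.21e-10).

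The genes that act on collagen were described from lists of enzymes, receptors and matrix partners. Of 14 genes for procollagen processing and crosslinking, 13 were higher and 0 lower in EpCAM-negative than in alveolar cells, where 32.7% of all tested genes were called higher and 29.2% lower. Of 10 collagen-degrading enzymes and inhibitors tested, 9 were higher and 0 lower. All 7 fibril-associated proteoglycan genes tested were higher there, led in level by Dcn at 2792 ± 71.8 RPKM (mean ± SD, n = 3) against 19.1 ± 2.74 RPKM (mean ± SD, n = 3) in alveolar cells. Of the 19 modification and folding genes 14 were higher and 3 lower, and all 9 collagen receptors tested were higher. Serpinh1, the collagen chaperone, was at 429 ± 9.91 RPKM (mean ± SD, n = 3) in EpCAM-negative cells and 78.2 ± 16.8 RPKM (mean ± SD, n = 3) in alveolar cells, while P4ha1, a prolyl hydroxylase subunit, was at 29.0 ± 2.96 and 48.0 ± 7.43 RPKM (mean ± SD, n = 3). Of the 10 basement membrane partners 9 were higher and 1, Lama5, was lower. The median log2 fold changes were 3.83 for processing and crosslinking, 3.60 for degrading enzymes and inhibitors, 5.21 for proteoglycans, 1.65 for modification and folding, 2.06 for receptors and 2.85 for basement membrane partners, against 0.01 over all tested genes.

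In trachea, where 21.9% of all tested genes were called higher and 26.2% lower in BSCs, the same lists were divided. Of 10 basement membrane partners, 7 had a higher and 2 a lower level in BSCs than in non-basal cells. Agrn, a basement membrane proteoglycan, was at 97.8 ± 4.54 RPKM (mean ± SD, n = 3) in BSCs and 33.8 ± 3.65 RPKM (mean ± SD, n = 3) in non-basal cells, and Sparc, which binds collagen, at 27.4 ± 3.04 and 3.85 ± 1.02 RPKM (mean ± SD, n = 3). Of the 14 processing and crosslinking genes 3 were higher and 8 lower, and of the 19 modification and folding genes 5 were higher and 7 lower. Of 10 degrading enzymes and inhibitors 2 were higher and 3 lower, and of 7 proteoglycans 1 was higher and 3 were lower. Several of these shares, such as that of modification and folding, lie near those of all tested genes. P3h2, a prolyl 3-hydroxylase that acts on type IV collagen, was at 29.4 ± 3.01 RPKM (mean ± SD, n = 3) in BSCs, 6.68 ± 0.836 RPKM (mean ± SD, n = 3) in non-basal cells and at most 5.12 RPKM as a mean in any lung population. Of 9 collagen receptors tested 4 were higher and 2 lower in BSCs, and Ddr1, the epithelial discoidin receptor for collagen, was at 73.2 ± 1.45 and 44.7 ± 0.485 RPKM (mean ± SD, n = 3) in the tracheal populations, and at its highest in CD24hi airway cells at 118 ± 14.7 RPKM (mean ± SD, n = 3).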

How the data were processed

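RNA-seq libraries of 18 sorted samples (6 populations, 3 mice each) were read as raw counts. Per the labels and the study's methods, the authors took reads from bcl2fastq 1.8.4, aligned the 100 bp single-end reads to mm10 with Rsubread and counted them per Entrez gene with featureCounts, without normalization, and deposited a length for each of 27179 genes. Strand use in counting was not given in the sources used here. The repeat of these counts in a table of the whole series was not used. Rows that named no gene numbered 0.

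A gene entered the tests when its CPM exceeded 0.2 in 3 or more libraries. After TMM scaling, quasi-likelihood F tests of edgeR 4.0.16 in R 4.3.3 were run in one fit with a mean per population, with Benjamini-Hochberg adjustment over 17989 genes and a threshold of 0.05. The workflow was tested on simulated data. RPKM used TMM-scaled library sizes and the deposited lengths. Replicates are separate mice. Mice 1 to 3 pair the tracheal and mice 4 to 6 the lung populations by the labels. Deviations from the population means over all tested genes correlated at -0.06 to 0.34 for libraries of one mouse (21 pairs), and no replicate pair was alike within counting noise (chi-square per degree of freedom at least 3.23). Alternatives were limma voom (limma 3.58.1), DESeq2 1.42.0, library size alone, RLE factors, no filter, a stricter CPM minimum of 1, a replicate block, a fit to the compared libraries, a gene length correction, thinning of the tracheal libraries and leaving out each library.

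Members and lists were chosen with earlier results of these data known. Named genes are the 3 highest of each structural class in any population, usual partner chains, at most 6 called genes at each end of a comparison, and genes of the partner lists. Serpinh1, P4ha1, Agrn, Sparc, P3h2 and Ddr1 and the examples of low genes were chosen after their values were seen. Symbols, positions and promoter windows came from RefSeq's GRCm38.p6 tables (25275 identifiers matched), and exon overlaps from GENCODE vM21.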

Additional observations from a re-analysis of the deposited data

How the results depend on the processing

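Of 287 calls of a collagen gene in a comparison, 254 kept their direction and stayed past the threshold in every alternative that could be fitted, 33 lost it in at least 1, and 0 changed direction. Leaving out 1 library accounted for 89 lost calls in 1686 fits of single genes, library size alone for 12 of 287, DESeq2 and limma voom for 6 of 287 each, and RLE factors for 3 of 287. The number of collagen genes called between alveolar and CD24lo airway cells ranged from 17 to 26 when each library was left out, with 17 without alveolar replicate 1 against 26 in the full data. In the other 8 comparisons every count was within 1.5 times the full count. The fit with the mouse as a replicate block (the number in the title for BSCs against lung cells, whose mice differ) also used only the libraries compared. Between EpCAM-negative and alveolar cells 37 collagen genes were called in the full fit and 38 in the fit of the libraries compared, both without and with the block. Between BSCs and non-basal cells these counts were 30, 24 and 25, since the filter on these 6 libraries left out 6 called genes. Relative to the full fit, calls gained were Col4a2 between EpCAM-negative and alveolar cells (adjusted p = 9.17e-05 without and 2.57e-04 with the block), Col23a1 between EpCAM-negative and CD24lo cells (0.0496 and 0.0284), and Col11a2 (0.0480 and 0.0390) and Col16a1 (0.0112 and 0.00997) between BSCs and alveolar cells. Gained with the block alone were Col27a1 between BSCs and non-basal cells (0.0592 and 0.0391) and Col13a1 between the airway gates (0.143 and 0.00864). Of the 279 calls that could be fitted with the block, 2 were lost there, Col9a3 between EpCAM-negative and CD24lo cells with the block alone (0.0470 and 0.0681), and Col27a1 between alveolar and CD24lo cells in both fits (0.129 and 0.0777). With the block no other call differed from the full fit. Between BSCs and non-basal cells, library size alone shifted the median of all tested genes from -0.02 to 0.31 on the log2 scale, and the share of higher genes among all genes called from 45.5% to 72.2%, and the gene length correction moved that median to 0.15 and that share to 61.6%. That share moved in other comparisons too. With library size alone it went from 50.5% to 68.4% for CD24hi against CD24lo and from 50.8% to 34.6% for alveolar against CD24hi cells. For BSCs against alveolar cells it went from 46.1% to 64.5%. With the gene length correction it went from 50.1% to 68.5% for alveolar against CD24lo and from 52.8% to 40.5% for EpCAM-negative against alveolar cells. Causes of these changes were not tested. Over the 3 libraries of a population, 20 of the 40 collagen genes had under 30 reads in BSCs, 9 to 11 in non-basal, airway and alveolar cells and 4 in EpCAM-negative cells, and values of such genes carry a large counting error.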
